A study of Homo sapiens with 16 samples.

Results

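Wild-type and FOXB1 KO cells were compared on day 5 of neural crest induction from WA01 human embryonic stem cells, an established pluripotent line. All genes of the authors' deposited comparison that were not marked as failed and reached at least 1 FPKM (fragments per kilobase of transcript scaled to the mapped fragments of the library) in wild type or KO were taken, which gave 14070 of 23284 genes. Of these, 13958 had a test and 112 had none. The change of a gene is the log2 ratio of the KO level to the wild-type level, so a change of 1 is a doubling.

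The series holds 16 libraries of poly-adenylated RNA, in 8 groups of 2. The day 5 groups are wild type (2 isogenic lines, isoWT1 and isoWT2), sgRNA-Het and sgRNA-KO. Both edited genotypes were made with CRISPR/Cas9 and 1 guide RNA aimed at the translation start of FOXB1, and the labels give 1 line for each. All groups, controls included, were plated at 20000 cells per cm2 with 3 µM of the GSK3 inhibitor CHIR99021, which activates WNT signalling, and had the ROCK inhibitor Y-27632 (10 µM) early on. Wild type is pooled into 1 deposited group at each day, and which of the 4 wild-type libraries of day 5 entered it is not stated. The files give 1 value per gene and group, so the levels below are the authors' group values, the depth is unknown, and replicate spread enters only through the standard error (SE) that the deposited test score implies. Whether replicates came from separate inductions is not stated, so that spread may be technical.

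FOXB1 is a forkhead transcription factor of the developing brain. The neural crest arises where the neural plate meets the surface ectoderm: border factors such as PAX3, ZIC1 and TFAP2A come first, specifiers such as FOXD3, ETS1 and SOX10 follow, and the cells then leave the neural tube to form peripheral neurons, glia, pigment cells and skeleton of the face. Neural progenitors, marked by SOX1 and SOX2, are the neighbouring fate, and Notch signalling keeps such progenitors from differentiating. The study asked how loss of FOXB1 protein alters expression during this induction.

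FOXB1 (chromosome 15, 60296421 to 60298142 in hg19) had 5.51 FPKM in wild type, 4.47 for Het and 1.86 for KO on day 5. Its level fell in KO by 1.56 on the log2 scale (SE 0.69), with a q-value of 0.0142 in the authors' deposited table. On day 3 the levels were 18.3 FPKM in wild type, 7.73 for Het and 15.5 for KO, and the KO change of -0.24 (SE 0.56) was not called. An edit at the translation start can leave the transcript in place, so these levels do not check the genotype. The day 5 call was lost when the p-value was taken from a normal reading of the deposited score.

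A gene was called changed at a q-value under 0.05 in the authors' deposited table, an adjustment over the 222234 tests of all 15 comparisons. By this rule 1068 genes rose in KO (7.65% of those tested) and 810 fell (5.8%). These 2 shares are the background for the counts of each list below. Called rises had a median log2 change of 1.71 and called falls one of -1.33. Changes of more than 8-fold were counted for 179 rises and 60 falls. The 12 called rises from 0 in wild type have no finite ratio and are left out of this count and of the median rise. Over genes at 1 FPKM or more in both groups the median was 0.01, and 665 of them rose and 668 fell. With Het in place of KO, 152 genes rose (1.12% of 13527 tested) and 144 fell (1.06%), against the same wild-type group (2.19% in either direction). KO against Het gave 797 rises (5.69% of 14011 tested) and 359 falls (2.56%), or 8.25% in either direction.

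**Figure D1:**
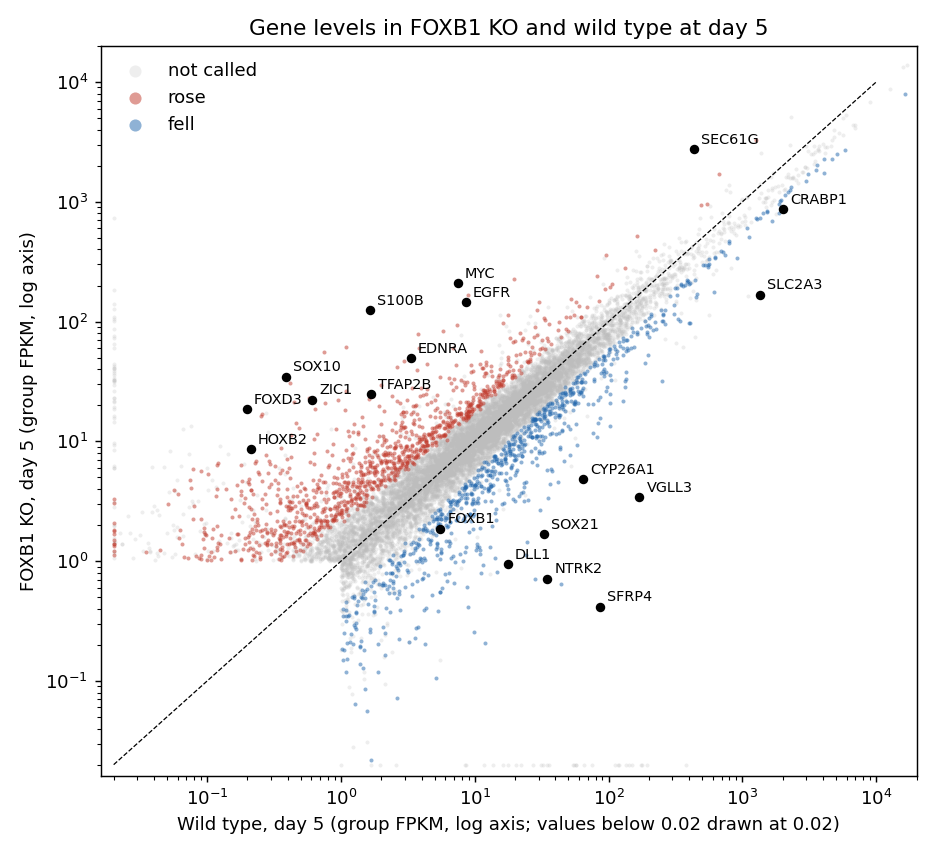
Group FPKM of each described gene in wild type (horizontal, log axis) and FOXB1 KO (vertical, log axis) at day 5, with 1 point per gene, called rises in red, called falls in blue, other tested genes in grey and the dashed line marking equal levels. SOX10, FOXD3 and S100B lie far above the line, and SFRP4, VGLL3 and NTRK2 far below it.

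Before the gene groups, 2 features of the KO group touch many of them. First, 253 genes had a KO level on day 5 more than 4 times that in each of the other 5 groups of the series. Small RNA features are part of this count. Of the 253, 239 were tested, 160 were among the rises (15% of all rises) and 74 reached 10 FPKM in KO on day 5. The 253 genes were singled out after their values were seen. They include SEC61G (432 FPKM in wild type, 327 in Het, 2751 in KO), a subunit of the protein translocation channel, and its neighbour on chromosome 7 EGFR, the epidermal growth factor receptor (8.54, 4.09 and 145). The next genes along that chromosome, LANCL2 (3.30 FPKM in wild type and 5.44 in KO) and VOPP1 (30.2 and 18.9), were not called. MYC, a growth-promoting transcription factor, had 7.46 FPKM in wild type, 2.21 for Het and 208 for KO. S100B, a calcium-binding protein of glia, had 1.64, 2.02 and 124.8 FPKM, and PRAME, a gene normally active in testis and in tumours, had 0.751, 0.104 and 55.7. On day 3 the KO levels were 7.05 FPKM for S100B, 2.35 for PRAME, 16.1 for MYC and 7.19 for EGFR. The rule above requires a day 5 KO level over 4 times the day 3 KO level. The gap between days in these 4 genes is therefore no separate result. These 253 genes are called KO-only genes below. The name stands for the 4-fold rule and not for absence elsewhere. SOX10, FOXD3 and ZIC1, which are among them, were also called rises in Het on day 5 (4.19, 4.50 and 3.09). For the 50 that rose and reached 10 FPKM in KO on day 5, the median Het level on day 5 was 10.9% of the KO level. The number of KO-only genes among a list's rises is given beside it. The rises of the progenitor, proneural, Notch, pluripotency, retinoic acid, axon guidance, endothelin, glycolysis, metallothionein and housekeeping lists include 0 of them. Whether RNA from another source entered the day 5 KO libraries was not tested, so the KO levels of these genes, SOX10, FOXD3, SOX9 and most glial rises included, carry that limit.

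Second, 2 chromosome regions moved as blocks. Chromosome 12 had a median log2 change of -0.50 over 679 genes at 1 FPKM or more in both groups, with 79.8% of them below 0, and 156 falls stood against 31 rises. Chromosome 1 from 140 Mb on had a median of 0.37 over 572 genes, with 19.8% below 0, and 104 rises stood against 15 falls, while the rest of chromosome 1 had -0.16. No other chromosome had a median beyond -0.19 or 0.17. In windows of 20 Mb along chromosome 12 the medians ran from -0.83 to -0.40 for KO and from -0.52 to -0.19 for Het against the same wild type. From 140 Mb on along chromosome 1 they ran from 0.26 to 0.51 for KO and from -0.23 to 0.06 for Het. Chromosome 12 was below 0 in every window for both edited lines, and chromosome 1 from 140 Mb on was above 0 in every window for KO. Without these 2 regions 933 of the 1068 rises and 639 of the 810 falls were left. Why the regions moved, and their part in other results, was not tested. Of the falls in the lists below, chromosome 12 holds 3 of the glycolysis list, 2 of the MYC list and 1 each of the p53, glia, proneural, pluripotency, amino-acid stress, axon guidance and housekeeping lists. The 2 regions together hold 3 rises of the contractile list and 1 of the retinoic acid list. They also hold 1 rise each of the crest receptor, glia, midbrain, proneural, WNT, placode, collagen, amino-acid stress, interferon, axon guidance and endothelin lists.

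**Figure D2:**
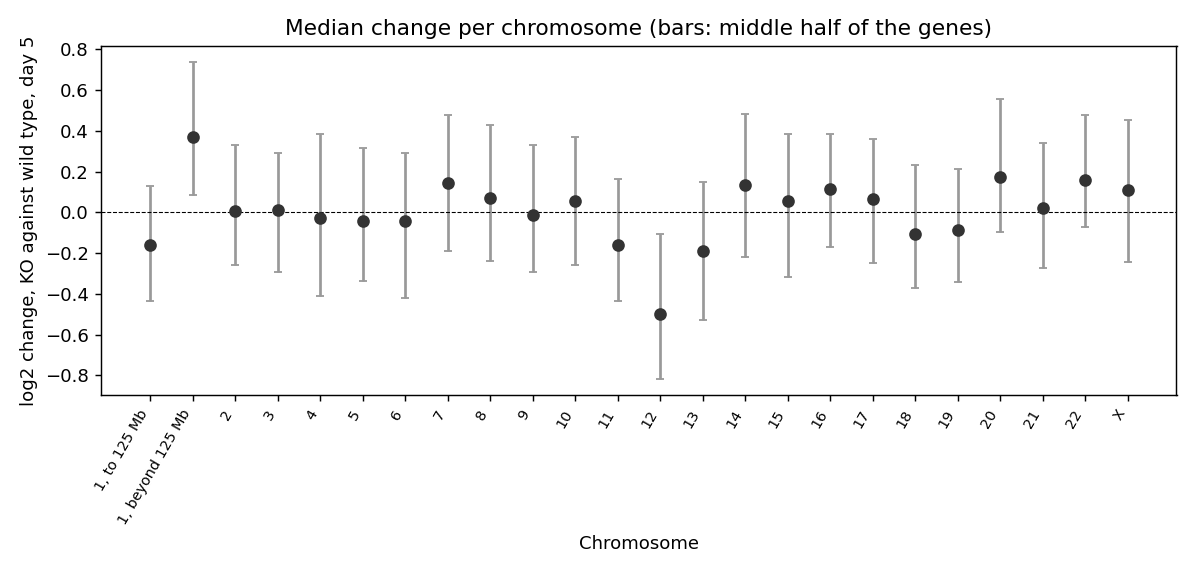
Median log2 change of KO against wild type at day 5 for genes at 1 FPKM or more in both groups, per chromosome, with chromosome 1 split in its gene-free middle; bars span the lower to the upper quartile of the genes. Chromosome 12 sits lowest at -0.50 and the far part of chromosome 1 highest at 0.37.

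Of 18 neural plate border genes measured, 8 rose in KO, 3 fell and 7 were not called, with a median log2 ratio of (FPKM + 0.1) of 0.79 against 0.03 over all 14070 genes, and 1 of the 8 rises is among the KO-only genes. TFAP2A, an activator that opens the crest programme, went from 1.98 FPKM in wild type to 12.7 in Het and 29.6 in KO, a log2 change of 3.90 (SE 0.59) in KO. Its relative TFAP2B had 1.67, 10.4 and 24.9 FPKM, and TFAP2C had 1.24, 4.28 and 11.9. ZIC1, a zinc finger border factor, rose from 0.605 FPKM to 22.3 with 5.16 in Het, and PAX7 rose from 0.206 to 4.45 with 2.37 in Het. For these 5 genes the Het level lay between wild type and KO. HES4, a transcriptional repressor of the Notch pathway, fell from 13.0 to 1.32 FPKM. ZIC2 stayed high, with 85.6 FPKM in wild type and 96.0 in KO, and was not called.

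Of 18 crest specifiers, 6 rose, 3 fell and 9 were not called, with a median of 0.26, and 3 of the 6 rises, SOX10, FOXD3 and SOX9, are among the KO-only genes. SOX10, the master factor of migrating crest and of glia (chromosome 22, 38368319 to 38380539), had 0.388 FPKM in wild type, 7.07 for Het and 34.6 for KO. Its change was 6.48 (SE 0.68) in KO and 4.19 (SE 0.85) in Het. FOXD3, a forkhead factor that keeps crest cells multipotent (chromosome 1, 63788730 to 63790797), had 0.198, 4.49 and 18.6 FPKM and the largest called rise with a finite ratio, 6.56 (SE 0.90). SOX9 went from 3.39 to 28 FPKM, ETS1 from 6.45 to 33.5 and SOX8 from 2.21 to 8.91. The mesenchymal transition factors SNAI2 (23.2 FPKM in wild type, 28.5 in KO) and SNAI1 (3.42 and 3.83) were not called. The retinoid-binding protein CRABP1 fell from 2013 FPKM to 869.

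Among 31 crest receptors, adhesion and migration genes 12 rose, 4 fell and 15 were not called (median 0.69), and none of the 12 rises is among the KO-only genes. The endothelin receptors EDNRA, used by crest of the face, and EDNRB, used by pigment and gut crest, rose by 3.90 (SE 0.51) and 4.22 (SE 0.84). EDNRA had 3.31 FPKM in wild type, 18.5 for Het and 49.5 for KO, and EDNRB had 0.213, 0.654 and 3.96. The neuregulin receptor ERBB3 went from 3.13 to 21.9 FPKM, against the trend of its chromosome 12, and the adhesion molecule CDH6 from 5.49 to 34.2. CDH7, a cadherin of migrating crest, fell from 1.90 to 0.119 FPKM. NGFR, widely used to sort crest cells, had 17.5 FPKM in wild type and 19.7 in KO and was not called. In the same way the classical cadherin CDH2 (134 and 101) and the integrin ITGB1 (115 and 140) did not pass the test.

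The labelled cell type was checked with marker lists that overlap the lists above. Of 10 crest markers, 8 rose, 2 were not called, and 10 of 10 reached 1 FPKM in KO and in Het against 7 in wild type. Their summed level was 64.2 FPKM in wild type, 113 for Het and 265 for KO. In wild type SOX10 (0.388 FPKM), FOXD3 (0.198) and PAX7 (0.206) were below 1 FPKM, while the other 7 ran from 1.67 for TFAP2B to 23.2 for SNAI2. Neural progenitor markers went the other way, from a sum of 176 FPKM in wild type to 127 in Het and 62.1 in KO, with 4 of the 5 tested falling. Of the other cell types checked, mesenchyme markers summed to 3.03 FPKM in wild type and 16.8 in KO, of which DCN, a KO-only gene that was not called, gave 12.1. Sums were 2.03 and 6.97 FPKM for ectoderm and 0.181 and 3.77 for mesendoderm markers, with blood markers at 0.125 and 0.349. They were lower in KO for melanocyte (188 and 47.1 FPKM), endothelium (18.5 and 9.62) and pluripotent cell markers (370 and 302). Each of these 3 sums was mostly 1 gene: PMEL on chromosome 12 (186 and 44.8), TEK (17.9 and 8.66) and LIN28A (291 and 238, not called). Of 6 pluripotent cell markers measured, 4 were higher in KO, with 1 called rise, 1 called fall and a median of 0.43. In bulk RNA, fewer cells of a type and less RNA per cell cannot be told apart.

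**Figure D3:**
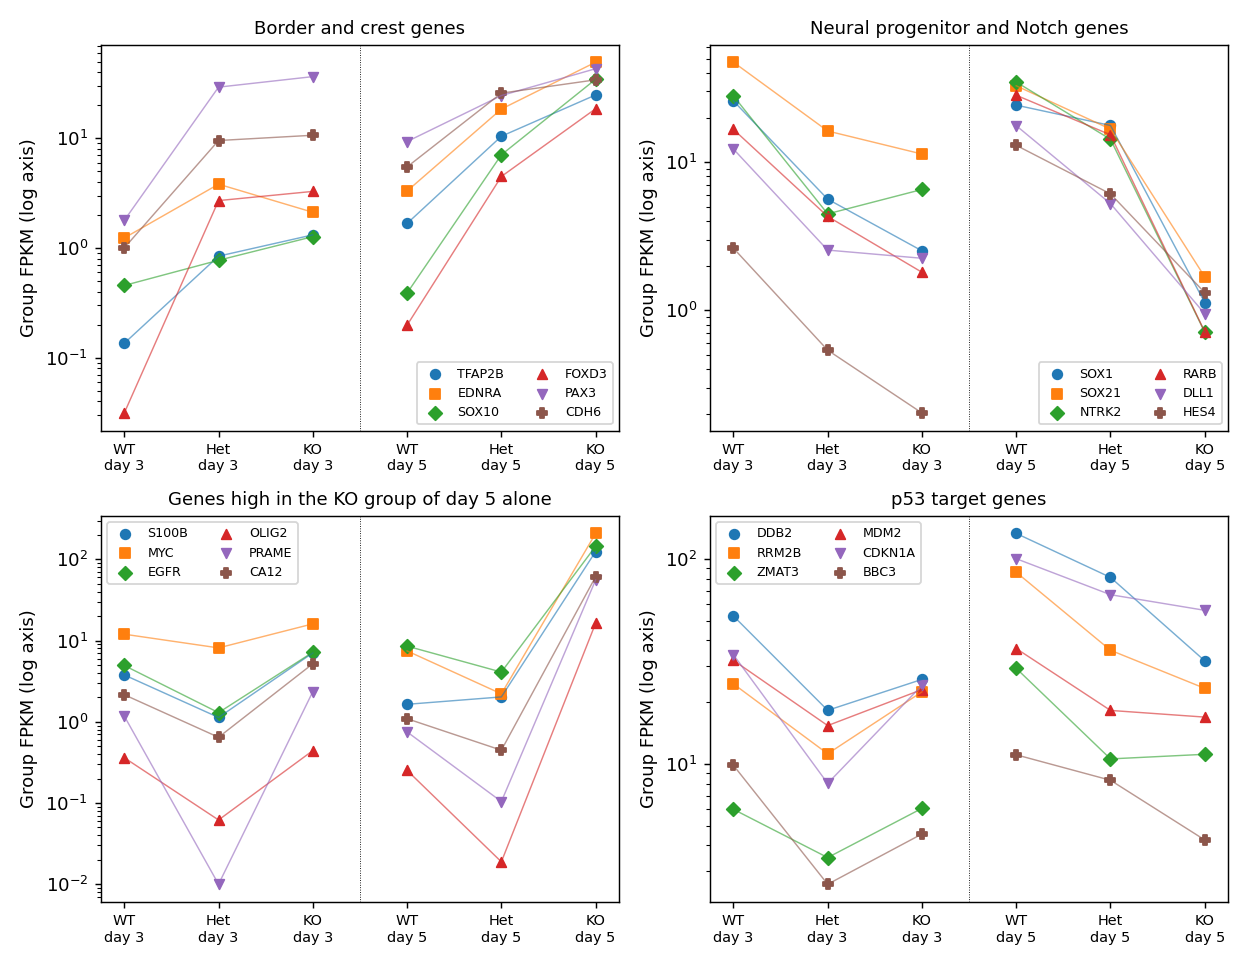
Group FPKM (log axis, values below 0.01 drawn at 0.01) of 6 genes per panel in wild type, Het and KO at day 3 (left of the dotted line) and day 5 (right). Border and crest genes step up from wild type to Het to KO at day 5, progenitor and Notch genes step down, the third panel's genes are high in the day 5 KO group alone, and the p53 targets are lower in KO than in wild type at day 5.

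Among 15 genes of melanocytes and glia there were 11 rises and 1 fall (median 2.64), but 8 of the 11 rises are among the KO-only genes, which leaves 3. Members below 1 FPKM in wild type, such as OLIG2, NFIX and NFIB, were counted only because KO reached 1 FPKM, which favours rises. S100B rose by 6.25 (SE 0.83), and the oligodendrocyte and motor neuron factor OLIG2 rose from 0.252 FPKM to 16.4, with 0.0189 in Het. The nuclear factor I genes NFIX (0.0744 FPKM in wild type, 4.73 in KO) and NFIB (0.101 and 5.29), which drive gliogenesis, were also near 0 in Het, at 0.0183 and 0.00406 FPKM. A different pattern held for 2 genes outside that set. FABP7, a lipid-binding protein of radial glia and Schwann cell precursors, had 16.3 FPKM in wild type, 31.9 for Het and 98.2 for KO, and the growth cone protein GAP43 had 19.2, 61.9 and 66.9. PMEL, a melanosome protein on chromosome 12, fell from 186 to 44.8 FPKM, while the pigment enzymes DCT and TYR stayed below 0.04 FPKM in both groups.

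Of 15 neural progenitor genes measured, 7 fell in KO, 2 rose and 6 were not called, with a median of -1.27, the lowest of the 32 lists. SOX1, the earliest definitive neural plate factor, had 24.2 FPKM in wild type, 17.7 for Het and 1.13 for KO, a change of -4.43 (SE 0.59). SOX21 went from 32.7 through 16.7 to 1.68 FPKM. SOX2, shared with pluripotent cells, fell from 140 to 58.0 FPKM and the filament protein NES from 250.1 to 101. OLIG3, a dorsal progenitor factor, rose from 0.339 to 4.51 FPKM.

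Of 20 Notch pathway genes measured, 8 fell, 1 rose and 11 were not called (median -0.75). The ligand DLL1 had 17.6 FPKM in wild type, 5.25 for Het and 0.948 for KO, and DLL3 fell from 4.0 to 0.711. The target genes HES5 (7.05 to 0.658 FPKM) and HES4 fell, while HES1, a target with other inputs, had 32.4 FPKM in wild type, 9.73 for Het and 29.6 for KO and was not called. JAG1 (45.6 to 25.5) and the glycosyltransferase LFNG (15.7 to 5.46) fell by less. With normal p-values of the deposited score, there were 4 falls in place of 8.

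Proneural factors and sensory neuron genes split, with 7 falls and 4 rises among 18 (median -0.38). The neurotrophin receptor NTRK2 had 34.7 FPKM in wild type, 14.3 for Het and 0.712 for KO, a change of -5.61 (SE 0.53), and NTRK3 fell from 5.63 to 1.26. RET, the GDNF receptor of enteric crest, fell from 1.40 to 0.191 FPKM, while its co-receptor GFRA1 rose from 0.189 to 3.05 with 1.43 in Het. The pan-neuronal tubulin TUBB3 had 80.1 FPKM in wild type and 57.5 in KO and was not called, and the peripheral neuron filament PRPH rose from 0.148 to 1.19. In the endothelin list the ligand EDN1 fell from 1.46 to 0.127 FPKM, opposite to its receptors.

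**Figure D4:**
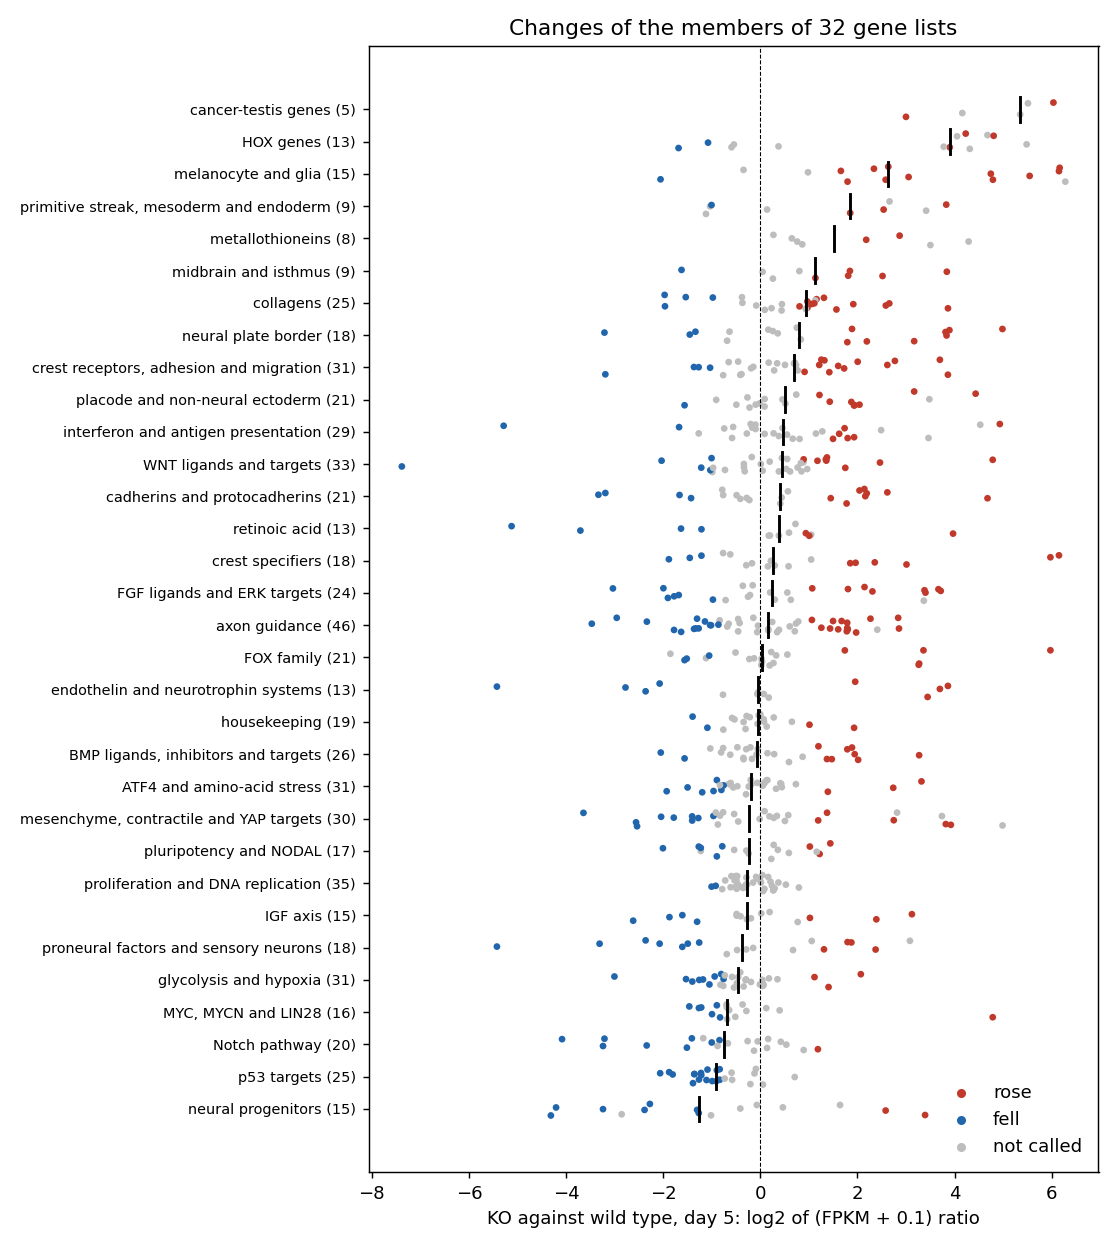
Log2 ratio of (FPKM + 0.1) in KO to wild type at day 5 for each measured member of 32 gene lists, with the number measured after each name, calls in colour (grey: not called or not tested) and a bar at the list's median. Neural progenitor genes have the lowest median at -1.27, and the p53 target list has no red point.

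Genes of position along the body axis moved in the midbrain and HOX lists. Among 9 genes of the midbrain and isthmus there were 5 rises, 1 of them a KO-only gene, and 1 fall (median 1.14). OTX2, which marks forebrain and midbrain, had 11.2 FPKM in wild type, 25 for Het and 24.8 for KO. The roof plate factor LMX1A went from 5.01 through 13.9 to 18.3 FPKM. WNT1, the midbrain WNT ligand, had 25.3, 58.5 and 26.2 FPKM and was not called, and SP8 fell from 9.6 to 3.05. Of 13 HOX and cofactor genes 3 rose and 2 fell. Members below 1 FPKM in wild type, such as HOXB2, HOXB1 and HOXA4, were counted only because KO reached 1 FPKM. HOXB2, a hindbrain gene, rose from 0.211 to 8.6 FPKM, and HOXB1 and HOXA4, listed at 0 in wild type, had 1.78 and 1.39 in KO. HOXA2, which patterns crest of the arches behind the first, fell from 10.4 to 3.17 FPKM. Of the 3 HOX rises 2 are among the KO-only genes, and without all KO-only genes the list's median went from 3.90 to -0.57.

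BMP signalling genes included 8 rises and 2 falls among 26, with a median of -0.06 and no KO-only gene among the rises. The ligand BMP4, which helps induce the border, had 2.40 FPKM in wild type, 9.15 for Het and 24.1 for KO. Its targets MSX2 (8.35, 37.5 and 31.2 FPKM) and GATA2 (0.219, 0.336 and 1.13) rose, and so did the BMP antagonist GREM1 (1.61, 4.42 and 6.82). The inhibitor SMAD6 fell from 6.46 to 1.48 FPKM, and ID3, a general BMP target, had 123 and 80.4 and was not called.

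In the WNT list 8 of 33 genes rose, 1 of them a KO-only gene, and 5 fell (median 0.45). SFRP4, a secreted WNT antagonist (chromosome 7, 37945535 to 37956525), had the largest called fall of all, from 86.0 FPKM in wild type and 63.1 in Het to 0.417 in KO, or -7.69 (SE 0.64). SFRP2, a relative, fell from 102 to 24.8 FPKM. The WNT enhancer RSPO3 rose from 1.20 to 4.27 FPKM with 5.93 in Het, and the antagonist DKK1 rose from 0.424 to 2.79. The cell cycle target CCND1 fell from 115 to 57.2 FPKM.

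FGF and ERK genes showed 8 rises and 6 falls among 24 (median 0.25). The ETS factors ETV4 (0.911 FPKM in wild type, 0.928 in Het, 12.8 in KO) and ETV5 (1.61, 1.41 and 22.4), which report ERK activity, rose in KO. The feedback inhibitors SPRY4 (1.26 to 14 FPKM) and DUSP4 (1.43 to 16) rose too. The receptor FGFR3 fell from 36.6 to 4.39 FPKM and the FGF carrier FGFBP3 from 198 to 53. Of the 8 rises 2 are among the KO-only genes.

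Retinoic acid genes moved in both directions. RARB, a receptor gene that retinoic acid itself induces, had 28.3 FPKM in wild type, 15.3 for Het and 0.716 for KO. The degrading enzymes CYP26A1 (63.9, 58.0 and 4.81 FPKM) and CYP26C1 (26.1, 39.3 and 8.36) fell with it. STRA6, the membrane receptor that takes up retinol, rose from 1.08 through 7.01 to 18.3 FPKM, and the binding protein CRABP2 rose from 490 to 939, opposite to CRABP1. In all 3 of 13 rose and 4 fell (median 0.38).

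Of 25 p53 targets, 17 fell and 8 were not called, with a median of -0.90. DDB2, a DNA repair factor, had 133 FPKM in wild type, 81.2 for Het and 31.8 for KO, and the nucleotide reductase RRM2B had 86.0, 35.8 and 23.3. The apoptosis genes BBC3 (11.1 to 4.25 FPKM) and BAX (187 to 102) and the growth regulator CCNG1 (440 to 221) fell less. With normal p-values of the deposited score there were 4 falls, with q below 0.01 there were 10, and without chromosome 12 and the far part of chromosome 1 there were 15. At day 3 the KO group had 3 called falls and 1 rise in this list.

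Glycolysis and hypoxia genes fell in 9 of 31 cases and rose in 3 (median -0.45). The neuronal glucose transporter SLC2A3 had 1342 FPKM in wild type, 514 for Het and 167 for KO, SLC2A1 had 103, 44.6 and 35.7, and the enolase ENO2 had 227, 124.7 and 86.0. SLC2A3, ENO2 and TPI1 lie on chromosome 12, which leaves 6 falls elsewhere. Het had 11 falls in this list. With normal p-values of the deposited score the KO falls numbered 3. Hexokinase HK1 rose from 29.1 to 77.3 FPKM. Of 35 proliferation genes 2 fell (CCNB2, 163 to 81.5 FPKM, and CDK1, 153 to 81.1) and 33 were not called. That is near the 5.8% of all tested genes that fell. PCNA had 187 and 181 FPKM.

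The MYC list combined the rise of MYC with 6 falls among 16 genes (median -0.68). HMGA2, a chromatin protein of embryonic cells on chromosome 12, fell from 262 to 95.0 FPKM and SOX11 from 93.0 to 40.0, while LIN28A (291 and 238) and the nucleolar MYC target NCL (348 and 459) were not called. MYC, the single rise of the list, is itself one of the KO-only genes.

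Adhesion and matrix genes moved in both directions. Of 25 collagens 12 rose, 1 of them a KO-only gene, and 4 fell (median 0.94). The fibrillar COL1A2 went from 52.0 FPKM in wild type through 95.0 in Het to 154 in KO, and COL23A1 from 0.397 through 2.26 to 7.14, while COL5A2 fell from 31.9 to 8.07. Contractile and YAP target genes fell in 9 of 30 cases and rose in 5, with 3 KO-only genes among the rises. ANKRD1 (11.1 to 0.799 FPKM), CAV1 (2.78 to 0.390) and tropomyosin TPM1 (398 to 96.5) fell, and the matrix protein TGFBI (2.98 to 46.6) rose. In the axon guidance list 14 of 46 rose and 13 fell. The netrin receptors UNC5C (1.09 to 8.53 FPKM) and DCC (0.709 to 3.80) rose, and EFNB2, a ligand that steers crest streams, fell from 70.3 to 20.5. PCDH10, a protocadherin, rose from 0.462 through 4.46 to 14.3 FPKM.

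Placode and non-neural ectoderm genes, the other neighbours of the border, had 8 rises, 1 of them a KO-only gene, and 1 fall among 21. EYA4, a placode cofactor, went from 0.425 through 2.58 to 11.2 FPKM, and the epithelial cadherin CDH1 from 0.271 to 1.43, while the placode factor FOXI3 fell from 6.05 to 1.99. The forkhead family had 5 rises and 3 falls among 21, and 4 of the 5 rises are KO-only genes. FOXO1, an effector of insulin signalling, fell from 5.53 to 2.62 FPKM. In the mesoderm and endoderm list 3 of 9 rose, 2 of them KO-only genes, and 1 fell; TBX1, a pharyngeal factor, went from 0.425 to 7.36 FPKM with 0.395 in Het.

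In the IGF list 3 of 15 rose and 4 fell. The receptor substrates IRS1 (19.9 to 3.15 FPKM) and IRS2 (12.6 to 4.08) fell and the ligand IGF2 rose from 0.880 to 5.04, with 1 KO-only gene, IGFBP3, among the rises. Amino-acid stress genes fell in 7 of 31 cases and rose in 3, 1 of them a KO-only gene: the serine synthesis enzymes PHGDH (128 to 73.1 FPKM) and PSAT1 (149 to 88.5) fell, and TRIB3, a pseudokinase that ATF4 induces, rose from 0.865 to 9.53. Of 21 cadherins and protocadherins 8 rose, 1 of them a KO-only gene, and 4 fell. Of 45 cancer-testis genes listed, 5 reached 1 FPKM in wild type or KO and 2 of these rose, the KO-only gene PRAME and TKTL1. The other 3 were not called, MAGEA12 (0.126 to 9.12 FPKM) among them. The list leaves out SAGE1 (0.0607 to 3.64 FPKM) and CT45A6 (0 to 1.38), which were also called rises and KO-only genes. PRAME, SAGE1 and CT45A6 were below 1 FPKM in wild type and passed the filter through their KO level. The endothelin and neurotrophin list had 4 rises and 4 falls among 13, all named above except NTF3, a neurotrophin, which rose from 1.38 to 5.64 FPKM.

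Other lists were further from the crest programme. Of 29 interferon and antigen presentation genes 6 rose, 1 of them a KO-only gene, 2 fell and 21 were not called. The rises include B2M at 95.0 FPKM in wild type, 80.1 for Het and 363 for KO and the peptide transporter TAP1 at 1.42, 0.763 and 5.19. Of 8 metallothionein list genes 2 rose, MT2A (2.77 to 20.9 FPKM) and MT1X (2.57 to 12). In the pluripotency list 5 of 17 fell and 3 rose, among them POU5F1, which maintains pluripotency, from 3.61 to 8.56 FPKM (45.7 and 67.5 on day 3). Of 19 housekeeping genes measured 2 rose and 2 fell, against 7.65% and 5.8% of all tested genes. The ribosomal RPLP0, on chromosome 12, fell from 5800 to 2727 FPKM. VGLL3, a cofactor of TEAD proteins, fell from 170 FPKM to 3.40, with 76.9 in Het. CXCL11 (11.9 to 0.207 FPKM) shares a locus with ART3, which fell as well, so their reads may be hard to separate.

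The KO change was then compared between days, in groups that share no libraries. On day 3, 589 genes rose (4.3%) and 742 fell (5.42%) of 13697 tested, 9.72% in either direction. Of the day 5 rises 19.9% were also called on day 3, as were 26.9% of the day 5 falls, which is 36.2% and 29.4% of the day 3 lists. In the opposite direction 13 genes rose on day 5 and fell on day 3, and 20 fell on day 5 and rose on day 3. TFAP2A (0.338 FPKM in wild type and 14.6 in KO on day 3), SFRP4 (10.9 and 0.116) and SOX1 (25.9 and 2.52) were changed on both days.

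A test of the difference itself, over the SE of both changes with Benjamini-Hochberg adjustment over 13749 genes, called 34 genes higher on day 5 (0.247%) and 18 lower (0.131%). SOX10 was among the first, with 0.455 FPKM in wild type and 1.27 in KO on day 3 and a difference of 5.00 (SE 1.00). EDNRA rose by more on day 5 too, by 3.13 (SE 0.81). Of the 34 genes, 18 are among the KO-only genes, S100B, MYC and SOX10 included. In the other direction EDN1 had 0.118 FPKM in wild type and 1.87 in KO on day 3, so its change turned from a rise to a fall, and PAPPA, a protease of IGF-binding proteins, turned from 0.683 and 13.6 FPKM to 1.45 and 0.529. BMP2, a border ligand, had 1.53 and 23.2 FPKM on day 3 and 5.45 and 10.1 on day 5. The fall of NTRK2 deepened from -2.10 (SE 0.45) to -5.61.

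**Figure D5:**
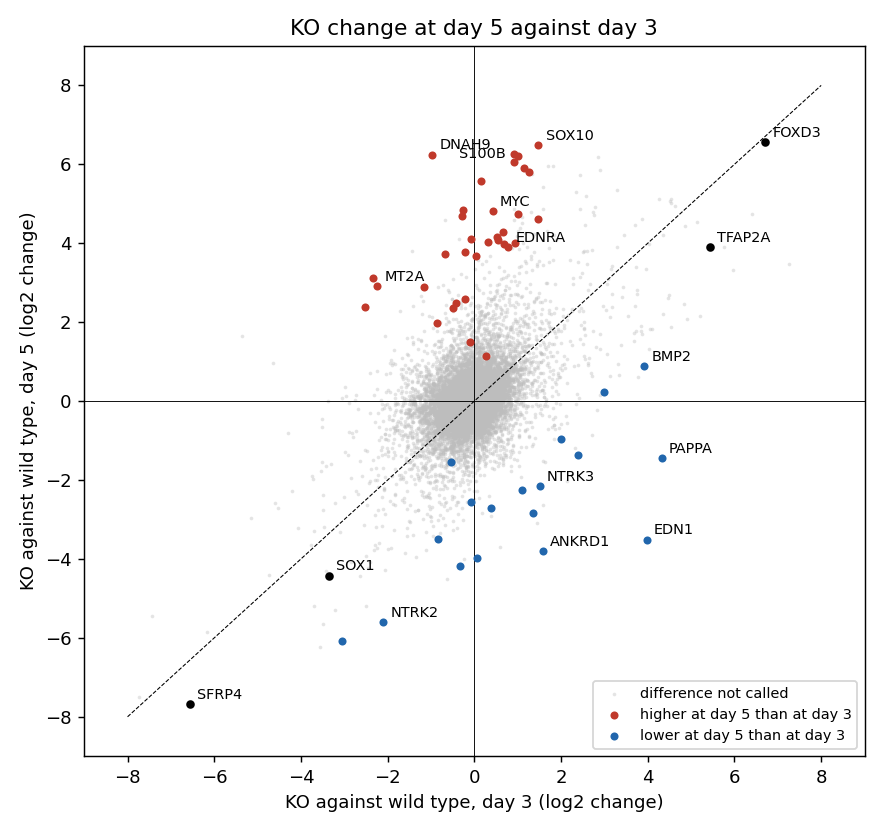
Log2 change of KO against wild type at day 3 (horizontal) and day 5 (vertical), 1 point per gene, with genes whose change differed between days in red (higher at day 5) and blue (lower at day 5), 4 genes without such a difference in black and the dashed line marking equal changes. SOX10 and S100B lie high above the line, and EDN1 and PAPPA on the opposite side of 0 from their day 3 change.

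Forkhead factors bind a core of TGTTTAC, so the 250 bases before each gene's RefSeq start (GRCh38.p14) were searched for it on both strands. Of 9431 described genes with a promoter in the table, 1.82% held the core, against 2.98% of all 27305 promoters. The share was 0.821% among 731 rises and 2.49% among 563 falls, or 6 and 14 genes. These are letter matches and not binding sites. The promoters of NTRK2 and PAPPA, which fell, and of GFRA1, which rose, are shown because each holds the core on the gene's own strand, in capitals. They lie at chr9:84669056-84669305 on the plus strand, chr9:116153541-116153790 on the plus strand and chr10:116274706-116274955 on the minus strand.

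NTRK2: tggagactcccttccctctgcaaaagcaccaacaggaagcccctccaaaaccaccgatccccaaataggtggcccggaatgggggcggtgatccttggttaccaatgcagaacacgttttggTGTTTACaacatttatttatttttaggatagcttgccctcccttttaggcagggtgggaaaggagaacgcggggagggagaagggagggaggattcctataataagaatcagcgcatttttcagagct
PAPPA: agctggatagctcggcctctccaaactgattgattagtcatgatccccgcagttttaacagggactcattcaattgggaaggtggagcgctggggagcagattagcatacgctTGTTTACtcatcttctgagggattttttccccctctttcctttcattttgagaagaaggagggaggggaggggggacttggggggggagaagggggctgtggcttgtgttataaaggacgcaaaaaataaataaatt
GFRA1: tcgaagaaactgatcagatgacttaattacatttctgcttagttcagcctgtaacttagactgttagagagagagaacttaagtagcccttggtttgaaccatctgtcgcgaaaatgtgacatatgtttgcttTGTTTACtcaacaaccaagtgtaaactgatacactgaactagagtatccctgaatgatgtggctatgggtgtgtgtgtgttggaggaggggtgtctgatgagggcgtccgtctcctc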

How the data were processed

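Poly-adenylated RNA was sequenced from 16 libraries. The submitters' processing notes name TopHat2 2.1.1, Cuffdiff 2.2.1 and the build hg19; filters and annotation: not given in the sources used here. By gene and group, the authors deposited 1 FPKM, log2 fold changes, test scores, p-values and q-values for 15 comparisons of 6 groups, with no counts, so depth is unknown. The deposited score is the fold change over its SE, and the SE of each log2 change was computed from it. The deposited p-values and q-values were used as given for calls, with 5e-05 the smallest p. They are smaller than normal p-values of the scores (scores were 0.647 of the normal ones), which was tried as an alternative, as were other filters, thresholds, centring, GC bins (GENCODE 29 transcripts) and leaving out chromosome regions. The day 5 and day 3 changes were compared over their joint SE by 2-sided normal p-values, adjusted by Benjamini-Hochberg. List medians use log2(FPKM + 0.1). A list member below 1 FPKM in wild type was counted only where KO reached 1 FPKM, which favours rises among such genes. The reverse favours falls. Scripts ran in Python 3.11.15 with scipy 1.17.1 and were tested on simulated data.

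The members, the 32 lists and the tests were chosen with earlier results of these data known. Lists share members. Genes to name were taken from FOXB1, the 15 largest called rises and falls and up to 10 called genes at 0 in a group. Up to 5 called members and the 2 highest members of each list, and the 10 largest differences between days per direction, were added. Not all of these genes are named, so those named are not the full set of the largest changes. Small RNA features, XIST and Y-linked genes were not named, but small RNA features remain in the counts. Some other genes were named after their values were seen. EEF1A1, used by every cell, is listed at 0 in both groups, so a value of 0 may be a failed estimate. Some items are not reported here.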

Additional observations from a re-analysis of the deposited data

Results flagged for a closer look

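Of the 34 genes whose KO change was higher on day 5 than on day 3 and the 18 whose change was lower, in the test of the difference itself, the 10 largest differences per direction, small RNA features left out, are given as the day 5 log2 change minus the day 3 log2 change, with Benjamini-Hochberg adjusted normal p-values. It was 7.22 for DNAH9, 5.45 for ACSS1, 5.42 for SPARCL1, 5.35 for S100B, 5.21 for PRAME, 5.16 for MT2A, 5.15 for RPH3A, 5.11 for PDYN, 5.00 for SOX10 and 4.96 for GABBR2. Of these 10 genes, SPARCL1, S100B, PRAME, RPH3A, SOX10 and GABBR2 are also among the genes with a KO level on day 5 over 4 times that of every other group. That rule itself favours a higher day 5 change. On the other side it was -7.49 for EDN1, -5.77 for PAPPA, -5.37 for ANKRD1, -4.18 for CAV1, -4.03 for NXPH2, -3.84 for ADCY2, -3.66 for NTRK3, -3.51 for NTRK2, -3.08 for MAMDC2 and -3.04 for BMP2. The motor protein DNAH9 had 5.50 FPKM in wild type and 2.79 in KO on day 3 and 0.0781 and 5.91 on day 5, so its wild-type level was lower and its KO level higher on day 5. MT2A and ACSS1, an acetyl-CoA synthetase, fell in KO on day 3 and rose on day 5. EDN1, PAPPA, CAV1 and NTRK3 did the reverse. Adjusted p-values ran from 4.59e-10 for PAPPA to 0.0363 for CAV1 and MAMDC2.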

How the results depend on the processing

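The authors' deposited table gives no value per library, so neither replicate could be left out. No paired analysis was possible because the columns hold pooled groups without replicate numbers. Every named gene with a call, in the main setting or under an alternative run on it, kept its direction. For named genes without a call the direction was not checked. The number of rises moved from 1068 to 665 with at least 1 FPKM in both groups, to 614 with at least 5 FPKM in a group, to 677 with q below 0.01 and to 495 with normal p-values of the deposited score. Falls moved from 810 to 668 with at least 1 FPKM in both groups and to 645 with at least 5 FPKM in a group. Rises did not outnumber falls under these filters. The falls numbered 481 with q below 0.01 and 276 with normal p-values. Under those normal p-values 39 of 208 named genes lost their call, FOXB1 included. With no filter, own adjustment of this comparison, a 2-fold minimum, the median subtracted, GC bins or without chromosome 12 and the far part of chromosome 1, both counts stayed within 1.5 times. The share of calls that were rises was 56.9% and ran from 48.8% to 64.2% over all alternatives. Without the KO-only genes, an alternative chosen after seeing the data, 908 rises were left. It also left 3 of 6 rises among crest specifiers and 3 of 11 among melanocyte and glia genes. For the difference between days, 34 higher genes became 411 with the SE scaled to the deposited p-values, 13 with at least 1 FPKM in all 4 groups and 13 without those KO-only genes, and 18 lower genes became 293 and 5 under the first and second of these. The cause was not tested. Across the 32 lists, 18 medians lay above that of all genes, and 17 to 19 did under the alternatives, of which GC bins, the chromosome regions and the KO-only genes were chosen for the lists after seeing the data. The lists' counts were less stable: normal p-values moved the falls of 23 lists and the rises of 11 by more than 1.5 times, and 1 FPKM in both groups moved the rises of 15. The log2 change and GC content had a Spearman rho of 0.14 over 11189 genes, as a description. The lowest detectable change depends on level: the median SE was 0.69 at a mean of 1 to 3 FPKM and 0.42 from 100 FPKM.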

Other observations

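CHCHD2, a mitochondrial protein on chromosome 7 singled out after its values were seen, had 8.95 FPKM in wild type, 85.8 for Het and 165 for KO on day 5, and 14.1, 67.9 and 50.3 on day 3, so both edited lines stood above wild type on both days. TUSC1, a single-exon gene, was listed at 0 in wild type on both days and had 0.846 FPKM in Het and 1.68 in KO on day 5.

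In KO on day 5, 30 genes, small RNA features included, had a level under 0.25 of the lowest of the other 5 groups. Of these 30, 15 were called falls. LRRN1, a neuronal membrane protein, had 128 FPKM in wild type, 92.2 for Het and 21.6 for KO on day 5 and 93.4 in KO on day 3, and was singled out after its values were seen. The HOX genes without a call on day 5 include HOXA9, at 0.0138 FPKM in wild type and 2.81 in KO, and HOXB3, at 0.0386 and 6.11, both KO-only genes.

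Of the 1068 rises, 627 were also called higher in KO than in Het on day 5, and of the 810 falls 298 were called lower. Both comparisons use the same KO group, so overlap was built in. Over all tested genes KO against Het called 5.69% up and 2.56% down. In Het against wild type, which shares the wild-type group, 113 of the rises were called up and 7 down, with a median Het change of 0.31. The falls had a median Het change of -0.49, with 91 called down. Over all tested genes Het against wild type called 1.12% up and 1.06% down.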
